A study of Mus musculus with 11 samples.

Results

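Complement is a cascade of plasma proteases and receptors, and fat is an unusual source of it because adipocytes secrete several of its components while the macrophages that lodge between them supply others. The genes described here are 9 complement genes in epididymal white adipose tissue (eWAT), taken by symbol from a list and not by their values, and all 9 were found among the 15453 genes of the tables. They were divided by the cell known to make them. Cfd, C3, Cfb, C4b and C2 formed the adipocyte-made group, and C1qa, C1qb, C1qc and C3ar1 the macrophage-made or macrophage-carried group. This division is textbook knowledge and not a measurement, and fibroblasts and macrophages of fat can also express members of the adipocyte-made group.

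The tissue came from male C57BL/6J mice (C57BL/6 in the labels) aged 16 weeks that ate a high fat diet from week 8 to week 16. Of the 11 mice, 6 were wildtype (WT) and 5 were pKO, which carried an inactivated Mest allele from the father. Mest is an imprinted gene transcribed from the paternal copy, so that pKO mice kept a maternal allele that is normally silent. The inactivated allele lacked exon 3 in every tissue, since the deletion had been passed through the germline with EIIa-cre, which was bred out afterwards, and the design is therefore not specific to adipocytes. WT mice of this set carried more fat for their lean mass than pKO mice, so genotype and adiposity cannot be told apart in these samples.

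Complement can be started in 3 ways. In the classical pathway C1q, built from equal numbers of A, B and C chains, binds a target and leads to cleavage of C4 and C2, whose fragments together form a protease that splits C3. The alternative pathway uses factor B (Cfb), which binds to deposited C3b and is cut there by factor D (Cfd, also called adipsin), to form another protease with the same substrate. C3a, released when C3 is split, signals through the receptor encoded by C3ar1. Factor D was named adipsin for its secretion by fat cells, and C3a without its last arginine is known as acylation-stimulating protein for its action on triglyceride storage.

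Transcripts were counted by SAGE (serial analysis of gene expression). The enzyme NlaIII cuts cDNA at CATG in this method, and the fragment nearest to the poly(A) tail gives a short tag, 1 for each transcript. Levels of different genes therefore need no correction for length, but each gene is seen through a single place in its 3′ part. Tags were predicted from the GENCODE M21 transcripts on GRCm38 as the 3′-most CATG of the longest protein-coding transcript marked as principal, with up to 22 bases after it. They are shown because the position and uniqueness of a tag bear on what each value counts, with the NlaIII site in capitals.
Cfd: CATGcatctga
C3: CATGtggggcctctcctctgacctct
Cfb: CATGcaaaggagattccgggggccct
C4b: CATGgggatggacggggaaaccagtg
C2: CATGgtcactgactcctttattagtc
C1qa: CATGaccctagtatggacagtggctg
C1qb: CATGgatgcgtaatcacggggtcaaa
C1qc: CATGgtgggcatagagggctccaaca
C3ar1: CATGtgttaaatcactagaaagtcaa

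Cfd is on the forward strand at chr10:79890853-79892655, and the last site of its transcript lies only 11 bases from the transcript end, in the 3′ UTR of exon 5, so that this tag is short. The site before it, 82 bases from the end, would give CATGacatcctgaggggacaccagag, which is also the 3′-most tag of a shorter Cfd transcript with a RefSeq identifier of its own, 34 bases from its end. Which of these sites the deposited Cfd values count is not given in the sources used here. C3, at chr17:57203970-57228136 on the reverse strand, has its tag in the coding part of exon 40 at chr17:57204267-57204292, 227 bases from the transcript end, and no other gene shares it. The C4b gene is at chr17:34728380-34743882 on the reverse strand, and its tag in exon 40, at chr17:34728778-34728803, is identical to that of C4a, a near copy that is not among the genes analysed here, so C4b values are uncertain. C2 and Cfb are neighbours on the reverse strand, at chr17:34862604-34898265 and chr17:34856374-34862518, with 85 bases between the end of C2 and the start of Cfb. The C2 tag lies in the 3′ UTR of exon 18 at chr17:34862832-34862857, 313 bases before the start of Cfb, and the Cfb tag lies in coding sequence across an exon junction. That of Cfb is shared with Gm20547, an annotated gene that overlaps both C2 and Cfb and is not among the genes analysed here. The C1q genes form a cluster on the reverse strand of chromosome 4, with C1qb at chr4:136880129-136886187, C1qc at chr4:136889804-136893065 and C1qa at chr4:136895917-136898803. Tags of C1qb and C1qc were in exon 3, at chr4:136880276-136880301 and chr4:136890078-136890103, while that of C1qa was in the coding part of exon 2 at chr4:136897771-136897796, 934 bases from the transcript end. C3ar1, on the reverse strand at chr6:122847138-122856161, has its tag in the 3′ UTR of exon 2 at chr6:122847409-122847434.

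WT libraries held 9659740 to 14825727 tags and pKO libraries 11320342 to 14626803. The values given here are normalized tags, that is, the tags of a gene after division by the size factor of its library. WT mice averaged 25107 ± 2672 normalized tags of Mest (SD, n = 6) and pKO mice 1663 ± 566 (SD, n = 5), with no overlap (log2 difference 3.99, limma adjusted p = 1.2e-06). Adipoq, which encodes adiponectin and marks adipocytes, was at 53365 or more in every library. Tags of genes of the epididymis, the organ on which this depot lies, numbered 10 or more in 3 WT and 2 pKO libraries (WT replicates 3, 4 and 5, pKO replicates 1 and 3), and counts are given below with and without them. Each library was made from 1 mouse. Together the 9 complement genes took 0.135% to 0.240% of the tags of a WT library and 0.111% to 0.254% of those of a pKO library.

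Of the 9 complement genes, Cfb, C1qb and C3ar1 were lower and C2 was higher in pKO mice. A gene was called when limma, fitted to log2(normalized tags + 1) over all genes, gave an unadjusted p of at most 0.05 with a mean of 50 or more in either genotype, and log2 differences are WT minus pKO on that scale. By this rule 4 of the 9 were called, against 6.81% of all 15453 genes tested (lower in pKO, 3 of 9 against 3.70%, and higher in pKO, 1 of 9 against 3.11%). The minimum mean was met by 7 of the 9, and among all genes that met it 10.6% were called (5.77% lower and 4.85% higher in pKO, and 0.0505% at an adjusted p of at most 0.1). After Benjamini-Hochberg adjustment over all genes, 0 of the 9 were at or below 0.1 with limma, and likewise 0 with edgeR and 0 with DESeq2, against 0.0324% of all genes with limma. With edgeR 5 of all 15453 genes were at or below 0.1, and with DESeq2 121. The calls among the 9 genes therefore rest on unadjusted p-values, and WT and pKO values overlapped in each of the 9 genes. Without the 5 libraries with epididymis tags, 3 of the 9 were called, against 2.93% of all genes. These were C1qb, C3ar1 and C3, all lower in pKO mice, while Cfb and C2 were not called. The median log2 difference was 0.47 in the adipocyte-made group and 0.34 in the macrophage-made group, beside 0.0025 over all genes. The first of these turned to -0.28 over the 3 adipocyte-made genes that met the minimum mean, that is, without C3 and C4b. This is the value of Cfd (95% interval -1.47 to 0.90), which lay between C2 at -0.50 and Cfb at 0.47. It therefore gives no direction for the group.

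**Figure D1:**
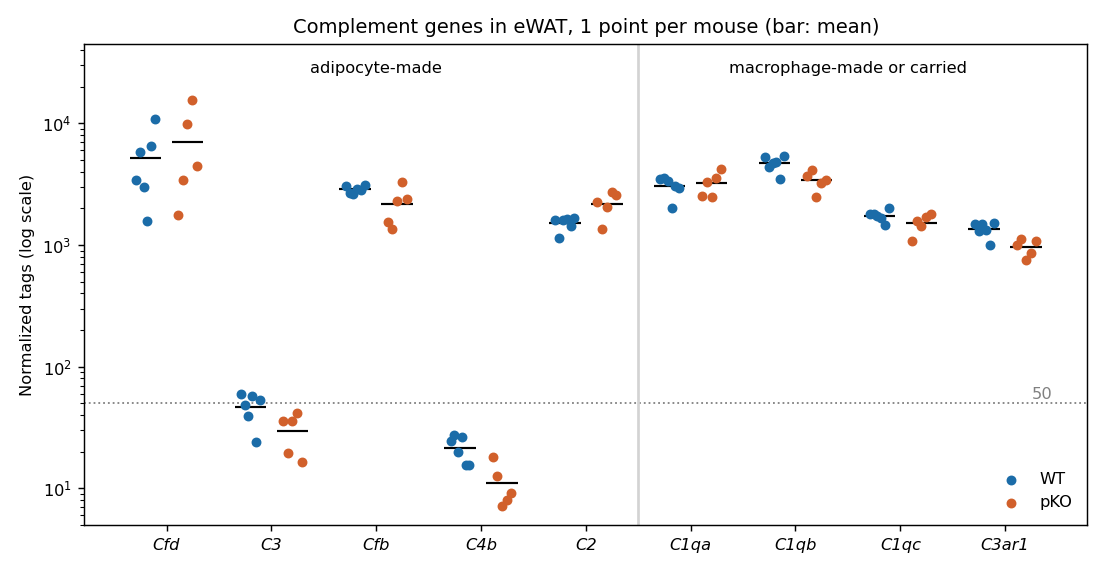
Normalized tags (log scale) of the 9 complement genes, with 1 point for each of 6 WT and 5 pKO mice and a bar at each mean. The dotted line is the minimum mean of 50, below which lie the group means of C3 and C4b, and Cfd has the widest spread between mice.

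Factor D, the protease that starts the alternative pathway's amplification, had the highest mean of the 9 genes and the largest coefficients of variation between mice of the same genotype. In WT mice its median was below that of C1qb. Cfd ranged from 1571 to 10784 normalized tags in WT mice, with a median of 4621. In pKO mice it was 1752, 3412, 9881, 15638 and 4437. Values of both genotypes were spread over the same range, and the lowest and highest mice of each stood several-fold apart. The coefficient of variation was 63.5% in WT and 81.1% in pKO mice, against medians of 12.8% and 21.1% over the 1963 genes with a mean of at least 1000, of which 0.0509% in WT and 0.306% in pKO mice had a larger one. The log2 difference was -0.28 (95% interval -1.47 to 0.90, limma adjusted p = 0.91; exact permutation test, p = 0.68), so that a difference between genotypes was neither shown nor bounded closely. Its sign turned when WT replicate 4 was left out (0.0098) or pKO replicate 4 (0.11). Factor D alone made up 25.3% to 68.9% of the summed level of the 5 adipocyte-made genes in WT and 31.4% to 72.0% in pKO mice, and this sum was 6199 to 15641 in WT and 5587 to 21722 in pKO mice.

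C3, the substrate on which all pathways meet, was listed at a low level. It ranged from 24.1 to 59.4 normalized tags in WT mice with a median of 50.7, and in pKO mice it was 36.1, 19.5, 35.6, 41.5 and 16.4. WT replicates 3 and 5 lay within the pKO range and the other 4 WT mice above it. WT mice averaged 46.9 ± 13.3 (SD, n = 6) and pKO mice 29.8 ± 11.1 (SD, n = 5). The log2 difference was 0.67 with a standard error of 0.30 (unadjusted p = 0.041 and adjusted p = 0.51 with limma), and the exact permutation test gave p = 0.076. C3 was not called because both means were below 50, and it had 16 to 65 tags in a library. It was called in 2 of 23 alternatives, in which the WT mean passed 50, with a log2 difference of 0.84 without WT replicate 5 (unadjusted p = 0.0088 and adjusted p = 0.44 with limma) and of 1.14 without the libraries with epididymis tags (unadjusted p = 0.020 and adjusted p = 0.91 with limma).

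Factor B, which carries the protease domain of the alternative pathway enzyme, was 1.32-fold higher in the mean of WT mice. Cfb was held within a narrow range in WT mice, from 2617 to 3122 normalized tags with a median of 2874. In pKO mice it was 1540, 1366, 2321, 3310 and 2386, so that 4 of 5 pKO mice lay below every WT mouse and pKO replicate 4 lay above them all. The means were 2876 ± 200 (SD, n = 6) and 2185 ± 776 (SD, n = 5), and the coefficient of variation was 6.96% in WT and 35.5% in pKO mice. The log2 difference was 0.47 (standard error 0.20, limma adjusted p = 0.48) with an unadjusted limma p of 0.032 and an exact permutation p of 0.048. This call was the least stable of the 4, since it was kept in 15 of 23 alternatives and lost, among others, without WT replicate 1, WT replicate 6, pKO replicate 1 or pKO replicate 2, and with edgeR and DESeq2.

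Of the classical pathway's C4 and C2, tags counted for C4b were few and those for C2 were plentiful. Whether tags shared with C4a were counted is not given in the sources used here, so few C4b tags need not mean few transcripts. C4b ranged from 15.4 to 27.6 normalized tags in WT mice with a median of 22.4 and was 18.0, 12.6, 7.12, 7.94 and 9.21 in pKO mice. Only pKO replicate 1 lay within the WT range. Its log2 difference of 0.95 (standard error 0.28, unadjusted p = 0.0041 and adjusted p = 0.37 with limma, exact permutation p = 0.0087) came from 7 to 27 tags in a library and from a tag that C4a shares, and the gene was below the minimum mean of 50. With C3 and C4b, 6 of the 9 genes had an unadjusted p of at most 0.05 at any mean, against 9.55% of all genes (5 of 9 lower in pKO, against 5.35%).

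C2, which supplies the protease domain of the classical pathway enzyme as factor B does in the alternative pathway, was the only one of the 9 that was called higher in pKO mice. It ranged from 1144 to 1666 normalized tags in WT mice, with a median of 1614. In pKO mice it was 2241, 1353, 2073, 2725 and 2556. Every pKO mouse but replicate 2 lay above all WT mice. The pKO mean was 1.44-fold that of WT, at 2189 ± 533 (SD, n = 5) and 1522 ± 202 (SD, n = 6). The log2 difference was -0.50 (standard error 0.18, limma adjusted p = 0.42) with an unadjusted limma p of 0.014 and an exact permutation p of 0.028. The call was kept in 22 of 23 alternatives, the exception being the fit without the libraries with epididymis tags, where the log2 difference was -0.54 (unadjusted p = 0.12 and adjusted p = 0.91 with limma).

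**Figure D2:**
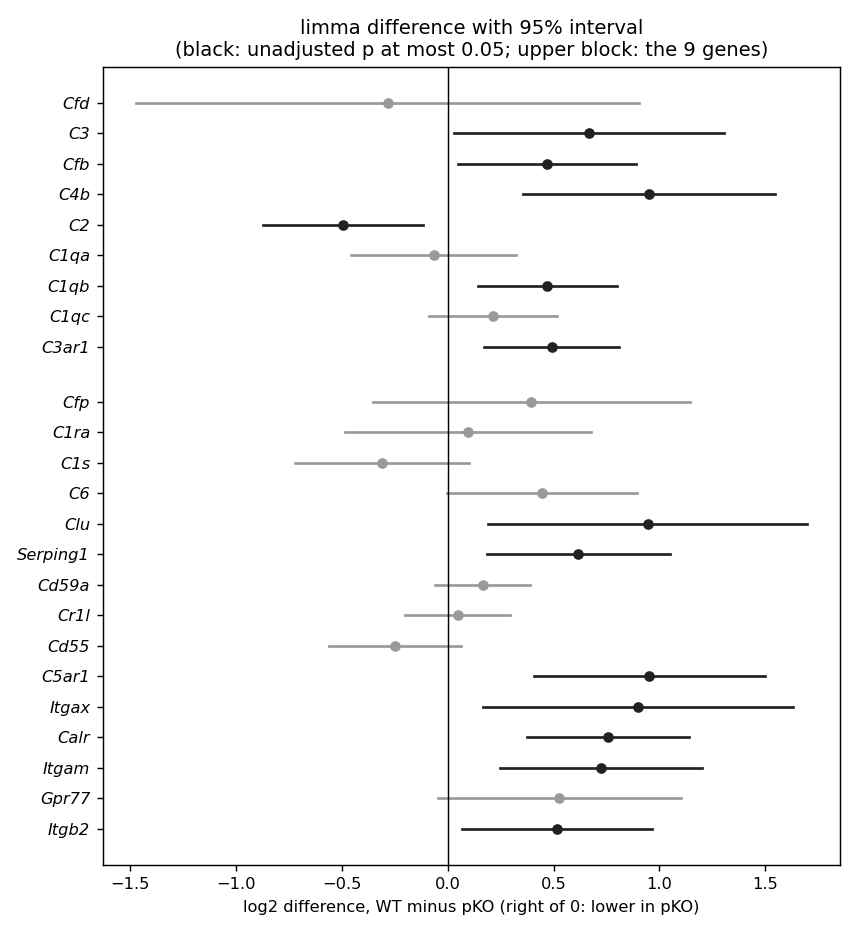
Log2 difference (WT minus pKO) with its 95% interval from limma for the 9 complement genes in the upper block and for 15 other complement genes below, in black where the unadjusted p was at most 0.05. C2 is the only gene in black to the left of 0, that is higher in pKO mice.

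Because C2 and Cfb lie side by side and moved in opposite directions, their ratio was taken within each mouse, a comparison chosen after their values had been seen. The C2 to Cfb ratio was 0.424 to 0.615 in WT mice, and in pKO mice it was 1.45, 0.991, 0.893, 0.823 and 1.07. Every pKO mouse had a higher ratio than every WT mouse, including pKO replicate 2, which was low in both genes, and pKO replicate 4, which was high in both. WT mice had a mean ratio of 0.529 ± 0.064 (SD, n = 6) and pKO mice one of 1.05 ± 0.25 (SD, n = 5). No test is given for it, since the pair was picked for the opposite directions of its genes. A ratio within a library does not depend on how the library was scaled. Among the 6 libraries with fewer than 10 epididymis tags it was 0.424 to 0.534 in WT and 0.823 to 1.07 in pKO mice. Within each genotype the mice that were high in C2 tended to be high in Cfb, with a correlation of 0.72 of the log2 values centred on the genotype means over the 11 mice, given here as a description. Since the Cfb tag is shared with Gm20547, the ratio holds for that tag and not for a transcript of known structure.

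**Figure D3:**
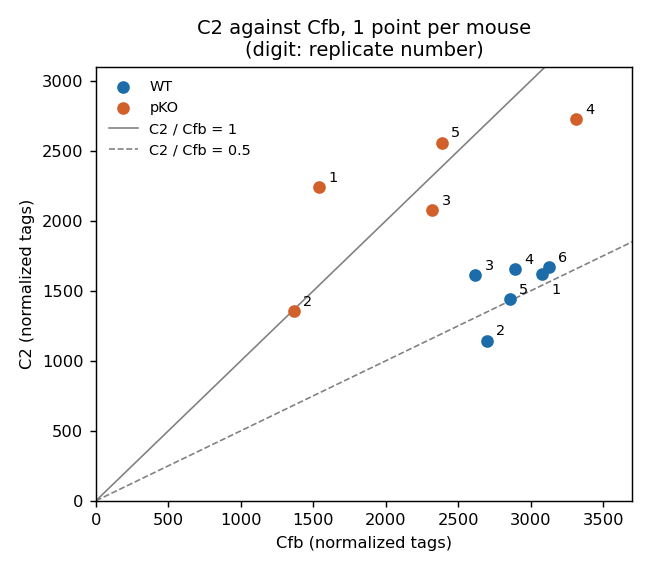
C2 against Cfb in normalized tags, 1 point for each of 6 WT and 5 pKO mice labelled with the replicate number, with lines at ratios of 1 and 0.5. WT mice lie at ratios of 0.424 to 0.615, near the lower line, and pKO mice at 0.823 to 1.45, with no overlap.

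Of the 3 chains of C1q, the recognition molecule of the classical pathway that tissue macrophages produce, only C1qb was called. It was 1.38-fold higher in the mean of WT mice, and C1qa and C1qc were not called. The 95% interval of the log2 difference of C1qb (0.14 to 0.80) overlapped those of the other chains given below. Such an overlap does not test whether the chains differed, and no test between chains is given. The call alone does not show that C1qb differed from the other chains. C1qb ranged from 3517 to 5347 normalized tags in WT mice with a median of 4786 and was 3693, 4153, 2487, 3258 and 3399 in pKO mice. WT replicate 5 lay among the pKO mice and the other WT mice lay above all of them. Means were 4688 ± 687 (SD, n = 6) and 3398 ± 614 (SD, n = 5), with a log2 difference of 0.47 (standard error 0.15, limma adjusted p = 0.37), an unadjusted limma p of 0.0083 and an exact permutation p of 0.013. The call was kept in all 23 alternatives, in which the log2 difference was 0.36 to 0.55.

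C1qa ranged from 2007 to 3573 in WT mice with a median of 3196, and it was 2525, 3296, 2498, 3577 and 4253 in pKO mice. The ranges lay over each other, and the log2 difference was -0.07 (95% interval -0.46 to 0.32, limma adjusted p = 0.94; exact permutation test, p = 0.73). C1qc ranged from 1460 to 2018 in WT mice with a median of 1757, and was 1088, 1574, 1436, 1695 and 1801 in pKO mice, where the lower values of pKO replicates 1 and 3 fell below the WT range. The log2 difference of C1qc was 0.21 (95% interval -0.09 to 0.52, limma adjusted p = 0.65; exact permutation test, p = 0.13). These intervals do not show that the chains were equal between genotypes. Within a mouse, the level of C1qb relative to C1qa averaged 1.59 ± 0.46 among WT mice (SD, n = 6) against 1.09 ± 0.27 among pKO mice (SD, n = 5), and the values of the genotypes overlapped. This ratio was also chosen after the values had been seen, so no test is given for it. Summed over the 3 chains, the level was 8036 to 10636 in WT and 6421 to 9453 in pKO mice.

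C3ar1, the receptor for C3a on macrophages, was 1.40-fold higher in the mean of WT mice. It ranged from 994 to 1530 normalized tags in WT mice with a median of 1404, and it was 1005, 1128, 750, 859 and 1078 in pKO mice. WT replicate 5 was again the WT mouse that lay among the pKO mice. Means were 1354 ± 201 (SD, n = 6) and 964 ± 157 (SD, n = 5), with a log2 difference of 0.49 (standard error 0.15, limma adjusted p = 0.37), an unadjusted limma p of 0.0053 and an exact permutation p of 0.013. The call was kept in all 23 alternatives, with log2 differences of 0.40 to 0.58. C3ar1 and C1qb followed each other closely within genotypes, with a correlation of 0.93 over the 11 mice, while that of C3ar1 with C1qa was 0.29.

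**Figure D4:**
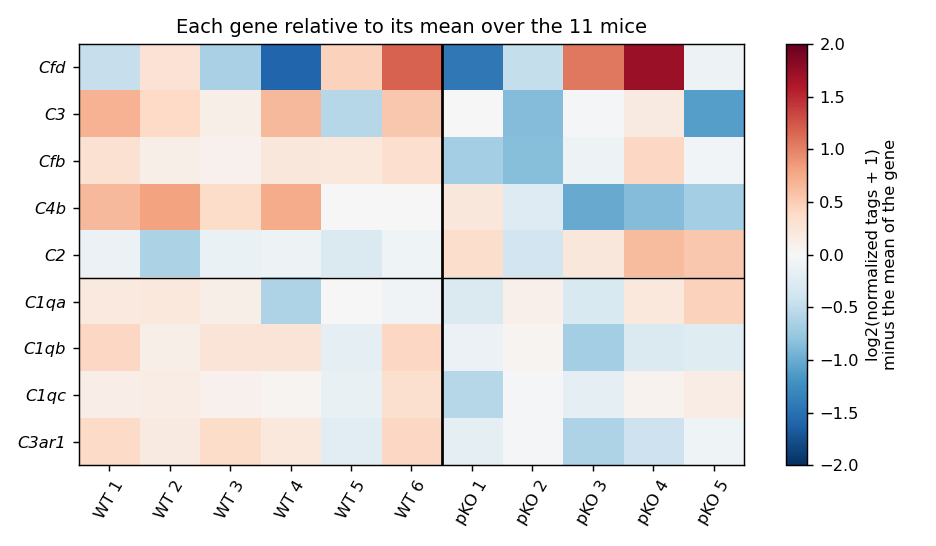
Colour gives log2(normalized tags + 1) of each gene minus its mean over the 11 mice, for 6 WT mice left of the vertical line and 5 pKO mice right of it, with adipocyte-made genes above the horizontal line. C2 is the row that is mostly blue in WT and red in pKO mice, and Cfd shows the deepest colours in both genotypes.

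Macrophage-made genes were set beside macrophage marker genes that are not complement genes, since in bulk tissue fewer cells of a type and less RNA per cell cannot be told apart. Of 10 macrophage markers in the tables, 2 were called lower (Ctss and Cd14) and 0 higher in pKO mice, against 3.70% and 3.11% of all genes, and their summed level in normalized tags was 6477 to 10566 among WT and 5744 to 7480 among pKO mice. None of the 10 was at 0 in any library. Emr1, which encodes the macrophage antigen F4/80, had nearly the same mean in WT mice (856 ± 151, SD, n = 6) as in pKO mice (865 ± 271, SD, n = 5), and Csf1r was at 685 ± 116 and 587 ± 138. The 10 markers had a mean log2 level of 8.27 ± 0.14 in WT (SD, n = 6) against 8.02 ± 0.27 in pKO mice (SD, n = 5), with an exact permutation p of 0.082, and that of the 10 adipocyte markers was 14.1 ± 0.15 and 14.3 ± 0.12 (exact permutation test, p = 0.10). The part of macrophage number in the differences of C1qb and C3ar1 was not tested. Of the markers of other cell types, 2 of 10 for adipocytes (Pnpla2 and Slc2a4), 1 of 8 for stromal cells (Dcn), 2 of 5 for mesothelium (Krt19 and Msln), 1 of 5 for hepatocytes (Alb) and 0 of 7 for lymphocytes were called, all of them higher in pKO mice, as were 3.11% of all genes, and their part in the results was not tested either.

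Relations of the 9 genes with the marker lists were examined over the 11 mice, and again with each genotype centred on its own mean and permuted within genotypes. This was done because C1qb, C3ar1 and the mean log2 level of the macrophage markers were lower in the mean of pKO mice. Among the single markers, Emr1, Cd163 and Mertk had higher means in pKO mice. Pooled over genotypes, C1qb had a Pearson r of 0.80 with the macrophage markers (permutation p = 0.0025, 0.016 after Benjamini-Hochberg adjustment over the 9 genes) and a Spearman rho of 0.81 (permutation p = 0.0042, adjusted 0.019), and r was 0.77 without the 2 mice farthest from the median of the markers. Centred, its r was 0.70 (permutation p = 0.024, adjusted 0.11) and its rho 0.58 (permutation p = 0.098, adjusted 0.31), so that the relation did not pass an adjusted p of 0.1 within genotypes.

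For C3ar1 the pooled r was 0.77 (permutation p = 0.0046, adjusted 0.016) and rho 0.85 (permutation p = 0.0015, adjusted 0.014), with r of 0.67 without those 2 mice. Centred, its r was 0.66 (permutation p = 0.038, adjusted 0.11) and its rho 0.59 (permutation p = 0.10, adjusted 0.31). C1qc had a pooled r of 0.78 (permutation p = 0.0053, adjusted 0.016) but a rho of 0.57 (permutation p = 0.069, adjusted 0.15), r dropped to 0.51 without 2 mice, and the centred r was 0.71 (permutation p = 0.033, adjusted 0.11). For C1qa the pooled r was 0.32 (permutation p = 0.35, adjusted 0.42) and rho 0.18 (permutation p = 0.59, adjusted 0.59). Within the 6 WT mice alone r was 0.95 for C1qb (exact permutation p = 0.011, adjusted 0.05, and 0.56 without 2 mice) and 0.95 for C3ar1 (exact permutation p = 0.0056, adjusted 0.05, and 0.96 without 2 mice), and rho was 0.71 (exact permutation p = 0.14, adjusted 0.61) and 0.83 (exact permutation p = 0.058, adjusted 0.53). The relation of C1qb within WT mice thus rests on the 2 mice left out, and the 5 pKO mice were too few to be taken alone.

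Against the adipocyte markers, C1qb had a pooled r of -0.88 (permutation p = 0.00042, adjusted 0.0038) and a rho of -0.78 (permutation p = 0.0069, adjusted 0.031). Its centred r was -0.85 (permutation p = 0.0032, adjusted 0.028) and its centred rho -0.79 (permutation p = 0.0056, adjusted 0.051), and the centred r became -0.50 without 2 mice. C3ar1 had a pooled r of -0.81 (permutation p = 0.0028, adjusted 0.012) and a rho of -0.77 (permutation p = 0.0069, adjusted 0.031). Its centred r was -0.75 (permutation p = 0.013, adjusted 0.059) but -0.13 without 2 mice, so that this relation rests on them. Of the adipocyte-made genes, C3 also ran against the adipocyte markers, with an r of -0.95 in the 6 WT mice (exact permutation p = 0.0083, adjusted 0.075) and a pooled rho of -0.69 (permutation p = 0.023, adjusted 0.069), but its centred r was -0.33 (permutation p = 0.34, adjusted 0.61). Cfd had a pooled r of 0.22 (permutation p = 0.51, adjusted 0.58) and a rho of 0.07 (permutation p = 0.84, adjusted 0.84). Pooled r was -0.31 for Cfb, -0.59 for C4b and 0.30 for C2 (permutation p = 0.36, 0.056 and 0.38, adjusted 0.49, 0.13 and 0.49). None of the adipocyte-made genes rose with the adipocyte markers at an adjusted p of at most 0.1. With the macrophage markers, C3 had a pooled rho of 0.63 (permutation p = 0.043, adjusted 0.13) and an r of 0.30 (permutation p = 0.38, adjusted 0.42). In all, 18 relations were examined over the 11 mice, each pooled and centred, and 27 within WT mice.

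**Figure D5:**
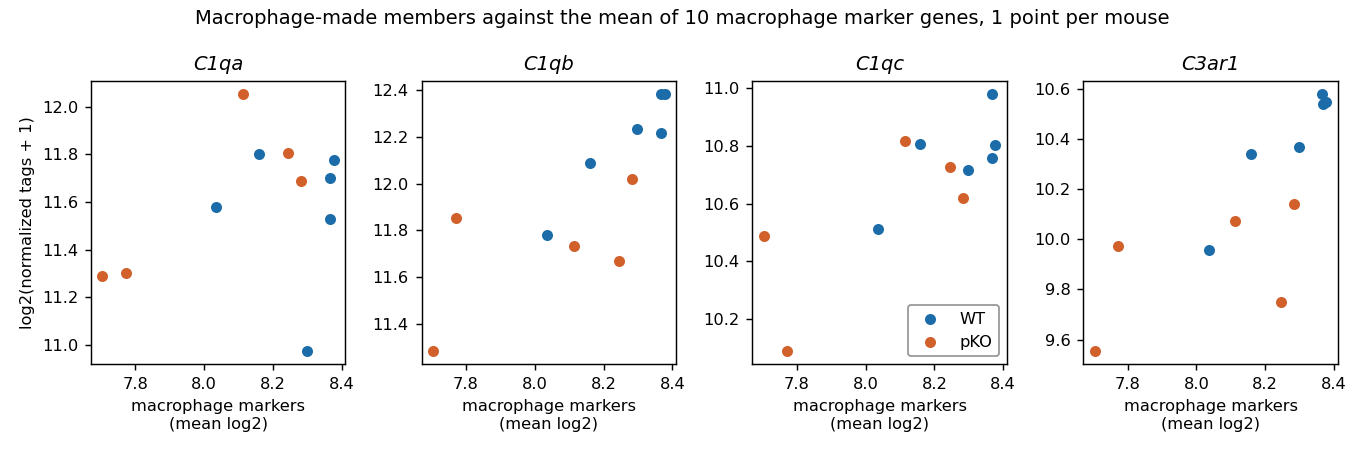
Log2(normalized tags + 1) of C1qa, C1qb, C1qc and C3ar1 against the mean log2 level of 10 macrophage marker genes, 1 point for each of 6 WT and 5 pKO mice. Pooled Pearson r is 0.80 for C1qb, 0.77 for C3ar1 and 0.32 for C1qa, and for C1qb and C3ar1 it is 0.70 and 0.66 once each genotype is centred on its own mean.

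The levels of the 9 genes fell into an order in which some neighbours could not be separated. Means over the 11 mice were 6023 normalized tags for Cfd, 4102 for C1qb, 3144 for C1qa, 2562 for Cfb, 1825 for C2, 1641 for C1qc, 1177 for C3ar1, 39.1 for C3 and 16.8 for C4b. Compared within each mouse by an exact sign-flip permutation test adjusted over the 8 neighbouring pairs, Cfd and C1qb (adjusted p = 0.52) and C2 and C1qc (adjusted p = 0.50) did not differ beyond their spread, and C1qa was above Cfb in 9 of 11 mice with an adjusted p of 0.072. C1qb was above C1qa in 8 of 11 mice and Cfb above C2 in 9 of 11, each with an adjusted p of 0.030 in the same exact test. C1qc was above C3ar1, C3ar1 above C3 and C3 above C4b in 11 of 11 mice (exact adjusted p = 0.0026 each). The place of C4b holds for counted tags only, since C4a shares its tag. So does that of Cfb, since Gm20547 shares its tag, and the site counted for Cfd is not known. C3 thus stood 4.94 log2 units below C3ar1, its fragment's receptor, although C3 is the most abundant complement protein in plasma. The cause of the low C3 value was not tested.

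Other complement genes were taken from a wider list of the cascade, of which 36 of 56 symbols were in the tables and 23 had a mean of at least 50. Of these 36 genes 7 were called lower and 0 higher in pKO mice, against 3.70% lower and 3.11% higher of all genes, with a median log2 difference of 0.14 over the 36. The share called lower was 5.77% over every gene that met the minimum mean. The receptors and binding proteins accounted for 5 of the 7 (of 10 in the tables) and the regulators for 2 (of 13), while 0 of 10 further initiating components and 0 of 3 terminal components were called. After adjustment over all genes 0 of the 36 were at or below 0.1 with limma and with edgeR, and 1, Calr, was with DESeq2. Without the libraries with epididymis tags 4 of the 36 were called, which were C5ar1, Calr and Itgam lower and C1s higher in pKO mice. C5ar1, Calr and Itgam were called in every alternative run. Serping1 was lost only in that subset, where Itgb2, Itgax and Clu were lost too. Itgb2 was also lost without WT replicate 1, 3 or 4 or pKO replicate 1 or 3 and with a replicate block, Itgax without pKO replicate 1 or 2, and Clu without pKO replicate 3 and with edgeR and DESeq2.

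Among receptors, C5ar1, which binds the C5a fragment, ranged from 306 to 521 normalized tags in WT mice with a median of 407 and was 184, 433, 215, 127 and 178 in pKO mice. All pKO mice except replicate 2 lay below the WT range. Its log2 difference was 0.95 (standard error 0.25, unadjusted p = 0.0022 and adjusted p = 0.31 with limma, exact permutation p = 0.017). Calr encodes calreticulin, a chaperone of the endoplasmic reticulum that also binds C1q at the cell surface. It ranged from 888 to 1297 with a median of 932 in WT mice and was 447, 761, 701, 680 and 419 in pKO mice. This was the only complement gene called whose genotypes did not overlap, against 1.43% of the 9906 genes with a mean of at least 50 (log2 difference 0.76, standard error 0.18, limma adjusted p = 0.27; exact permutation test, p = 0.0022, the smallest possible). Itgam, Itgax and Itgb2 encode the chains of complement receptors 3 and 4, which are also general markers of macrophages and other myeloid cells. WT means were 338 ± 66.1, 644 ± 260 and 445 ± 89.3 (SD, n = 6), and pKO means were 211 ± 67.6, 340 ± 132 and 314 ± 92.3 (SD, n = 5), with log2 differences of 0.72, 0.90 and 0.52 (limma adjusted p = 0.37, 0.44 and 0.47). Gpr77, the other C5a receptor, was at 69.6 ± 16.9 and 50.2 ± 20.6 and was not called (limma adjusted p = 0.55).

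The regulators that were called were secreted proteins. Serping1, the inhibitor of the C1 proteases, had a higher mean in WT mice than any of the 9 genes above, Cfd included. It ranged from 8033 to 11331 normalized tags in WT mice with a median of 8989, and was 3938, 4991, 5247, 8576 and 8458 in pKO mice, where the mice fell into a lower set of 3 and a pair within the WT range. Its log2 difference was 0.62 (standard error 0.20, unadjusted p = 0.0084 and adjusted p = 0.37 with limma, exact permutation p = 0.022). Clu, whose product clusterin binds the terminal complex, averaged 1037 ± 104 in WT mice (SD, n = 6) against 652 ± 464 in pKO mice (SD, n = 5), and pKO replicate 4, at 1413, was above every WT mouse (log2 difference 0.94, limma adjusted p = 0.43). The membrane-bound regulators were not called with limma over the 11 mice. Cd59a was called lower in pKO mice with DESeq2, and Cd55 was called higher without pKO replicate 4. Cd59a, which blocks the membrane attack complex, had a mean of 11370 ± 639 among WT and 10149 ± 617 among pKO mice (limma adjusted p = 0.63; exact permutation test, p = 0.011), and Cd55, which speeds the decay of both C3-splitting enzymes, had 1160 ± 175 and 1384 ± 246 (limma adjusted p = 0.61). C6, the terminal component with the highest level, averaged 2564 ± 319 in WT mice (SD, n = 6) against 1967 ± 628 in pKO mice (SD, n = 5), with an unadjusted p of 0.051 (limma adjusted p = 0.53; exact permutation test, p = 0.048). It was near the threshold and was called lower in pKO mice with other scalings, with limma-voom and without pKO replicate 1 or 2. C7 (15.5 and 12.3) and C8g (12.8 and 11.3) had few tags. C1s and C1ra, the proteases that C1q activates, were at 146 ± 25.2 and 293 ± 76.4 in WT and 183 ± 39.0 and 287 ± 113 in pKO mice (limma adjusted p = 0.63 and 0.94).

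Genes with a pattern over mice most like that of C3, Cfb, C1qb and Cfd were found by the Pearson correlation of log2(normalized tags + 1), centred within genotypes, over the 11 mice and 9899 genes, and are given as a description. Those given for C1qb are Col16a1 (0.96) and Ccdc48 (0.93). Cfb was most like Zfp395 (0.96), Mga (0.95) and Txnip (0.94). For C3 these were Tek (0.96), Zbtb10 (0.93) and Lgr4 (0.88), and those given for Cfd are Fbxo18 (0.97) and Rnf10 (0.96). Cfd itself ran with Cfb (0.67) and against C4b (-0.80) within genotypes. The value for C4b rests on 7 to 27 tags in a library and on a tag that C4a shares, and the site counted for Cfd is not known.

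Within the 6 WT mice, where Mest ranged from 20756 to 27897 normalized tags, Cfb was the member whose level followed Mest most closely. Cfb and Mest had the same order in the 6 mice (Spearman rho 1, exact permutation p = 0.0028, adjusted 0.025 over the 9 genes), with a Pearson r of 0.94 (exact permutation p = 0.0014, adjusted 0.013 over the 9 genes and 0.038 over all 27 relations examined in WT mice). Without the 2 mice farthest from the median of Mest, r was 0.88 for Cfb. It was then also 0.997 for C1qc, 0.91 for C3ar1, 0.88 for C1qb and 0.86 for C2. For C3 it was 0.75, for Cfd 0.29, for C1qa 0.049 and for C4b -0.010. That check therefore does not set Cfb apart. The whole range of Cfb in these mice was 2617 to 3122, and the other 8 genes had adjusted p-values of at least 0.82 for r. C2, the neighbour of Cfb, had an r of 0.37 (exact permutation p = 0.44) and a rho of 0.77 (exact permutation p = 0.10).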

How the data were processed

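The files hold SOLiD SAGE tags of 6 WT and 5 pKO mice. The authors aligned tags with a modified SOLiD SAGE Analysis Software and deposited a signal per gene, which is a tag count divided by a library size factor. Every value was a whole multiple of the library's value of 1 tag (100% of values within 0.01 tag), so whole tags were recovered. The submitters' processing notes name mm10 and edgeR 3.2.3. The gene annotation and gene filter are not given in the sources used here.

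Genotypes were compared with limma 3.58.1 (trend, not robust) in R 4.3.3 on log2(value + 1) over 15453 genes, without a filter, with Benjamini-Hochberg adjustment. Both thresholds (unadjusted p 0.05, adjusted p 0.1) and the minimum mean of 50 follow the study. Genes named were the 9 members, Mest, genes of the complement lists that were called or most abundant, cell type markers, and the 3 genes most like C3, Cfb, C1qb and Cfd, of which 2 are not reported here. C1s, C1ra, C7, C8g, Cd55, Gpr77 and the ratios were added after values were seen. Members and lists were chosen with earlier results of these data known. Exact permutation tests used the 462 splits of the mice, 720 pairings in WT mice or 2048 sign flips, and relations over 11 mice used 100000 permutations, all two-sided, and were repeated with centred genotypes after values were seen. Alternatives used edgeR 4.0.16, DESeq2 1.42.0 and limma-voom on recovered tags, other scalings, pseudocounts and filters, and left out each mouse. Scripts were tested on simulated data for this comparison of 15453 genes, where 94% to 100% of changed genes were recovered per fold size (2-fold or 4-fold either way). In it 200 genes were changed, and 5.8% of the calls were false. Every gene was given the same spread between mice, and changes below 2-fold were not simulated. These shares therefore do not tell how often smaller differences, or differences of more variable genes, would be found. Mice with the same replicate number did not deviate together. The closest libraries still differed by more than counting noise (chi-square 18.96 per degree of freedom), so each counted as a separate mouse.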

Additional observations from a re-analysis of the deposited data

Results flagged for a closer look

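For the 9 complement genes and the 7 others that were called, 32 groups of mice were examined for a mouse far from the rest, of which chance alone would mark 1.6, and 2 were marked. C5ar1 in pKO replicate 2 was at 433.2 normalized tags, against 127 to 215 in the other pKO mice and 306 to 521 in WT mice. Itgb2 in WT replicate 5 was at 274.0 normalized tags, against 428 to 519 in the other WT mice and 219 to 447 in pKO mice. The gap to the nearest mouse was 0.714 of the range for C5ar1, where 0.71 is the limit for 5 mice, and 0.630 for Itgb2, where 0.625 is the limit for 6.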

How the results depend on the processing

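The directions of C3, Cfb, C4b, C2, C1qb, C1qc and C3ar1 were the same in all 23 alternatives, except that the filter of 10 tags in every library removed C4b. The sign of Cfd turned without WT replicate 4 (0.0098) or pKO replicate 4 (0.11), and that of C1qa without WT replicate 4 (0.051) or pKO replicate 5 (0.040), neither being called in any, and leaving out a mouse gave -0.68 to 0.11 for Cfd and -0.15 to 0.051 for C1qa. Of the 9 genes 3 to 5 were called when a mouse was left out (5 with C3, without WT replicate 5), 3 with edgeR, with DESeq2 and without the libraries with epididymis tags (a choice made after seeing the data), and 6 at a minimum mean of 20. At an adjusted p of at most 0.1, leaving out a mouse gave 0 to 1 of the 9 (C2, adjusted p = 0.085, without pKO replicate 2), 0 to 2 of the other complement genes (C5ar1 and Calr, also without pKO replicate 2) and 3 to 91 of all genes, the last again without pKO replicate 2. Over all genes this count was 5, and it was 11 with a filter of 10 tags in every library, 121 with DESeq2 and 0 without the libraries with epididymis tags, where 453 genes in place of 1052 had an unadjusted p of at most 0.05, and 4 in place of 7 other complement genes. DESeq2 called 1 other complement gene after adjustment. The cause was not tested, except that fewer mice were fitted. Scaling to the library total moved the split of all called genes from 572 lower and 480 higher to 737 and 330, and the median log2 difference of all genes by 0.034.

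A fit with a replicate block pairs numbers 1 to 5 and leaves out WT replicate 6. It called 3 of the 9 genes and 878 of all genes. In that fit 1 gene of all had an adjusted p of at most 0.1. The correlation of deviations of mice with the same number was -0.092 to 0.14, so the numbers are not taken as pairs. Depth limits C3 and C4b, with at most 65 and 27 tags in a library.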
